A study of Arabidopsis thaliana with 40 samples.

Results

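The plastid-encoded transcripts are those of the chloroplast's own genome, and they were taken as every row of the expression table whose locus code starts with ATCG. There were 14 such rows among 27826. Of these, 3 belong to photosynthesis, 10 to the machinery of gene expression and 1 to neither. The photosynthesis rows are ATCG00020, for the D1 reaction-centre protein of photosystem II, ATCG00580, for the alpha subunit of its cytochrome b, and ATCG00140, for the membrane-ring subunit c of the ATP synthase. The expression rows are ATCG00170, for a subunit of the plastid RNA polymerase, ATCG00160, for a protein of the small ribosomal subunit, the 5S ribosomal RNA copies ATCG00970 and ATCG01160, and 6 transfer RNA rows. These are ATCG00230 for aspartate, ATCG00240 for tyrosine, ATCG00250 for glutamate, ATCG00610 for tryptophan, and the copies ATCG00990 and ATCG01140 for asparagine. The remaining row, ATCG00670, is for the proteolytic subunit of the Clp protease, which degrades proteins in the chloroplast. Neither the table nor the reference table pairs ATCG codes with genes. The roles come from general knowledge of the Arabidopsis plastid genome, with 8 rows assigned from a list of 96 loci and the 6 transfer RNA rows assigned after the rows were seen. The reference table lists 129 plastid genes, so the 14 rows stand for a minority of them, and most photosynthesis genes of the plastid are not analysed here.

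The chloroplast genome encodes core subunits of the photosynthetic complexes together with part of the apparatus that expresses them. A bacterial-type RNA polymerase, whose core is made in the plastid, transcribes most of these genes with nucleus-encoded sigma factors and associated proteins. A phage-type RNA polymerase from the nucleus serves others. The asparagine, aspartate, tyrosine, glutamate and tryptophan transfer RNAs carry amino acids to plastid ribosomes, and the glutamate one is also the starting point of chlorophyll synthesis. The D1 protein is damaged and replaced quickly in strong light.

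Shoots of Arabidopsis thaliana were measured on 40 arrays, 4 for each of 10 groups. The genotypes were wild type (WT) and 4 mutant lines called 2cysprx, cyp20-3, oastlB and serat2;1. All plants grew on soil in days of 8 h light and 16 h darkness until 4 weeks old, in a normal light (NL) of 80 µmol quanta m-2 s-1, and a set of each genotype then received a high light (HL) of 800 for 6 h. The lines are named for 2-Cys peroxiredoxin, a chloroplast peroxidase, the chloroplast cyclophilin CYP20-3, and O-acetylserine(thiol)lyase B and serine acetyltransferase, which make cysteine. The sources used here do not give alleles or the number of independent lines per mutant. Values are log2 intensities, levels are given with SD over 4 arrays, and differences are log2 differences ± standard error from 1 limma model, called at a Benjamini-Hochberg adjusted p under 0.05 over all rows.

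Some facts about the arrays bear on every result. The transcripts of the targeted genes were far lower in 2cysprx, cyp20-3 and oastlB than in WT, but SERAT2;1 was not lower in serat2;1, at 6.12 to 6.57 in NL against 6.06 to 6.54 in WT. On 2cysprx HL replicate 2, the peroxiredoxin transcript 2CPA read 9.0, against a low of 5.13 in that group and 10.8 to 11.1 in WT, so the array goes against its label and its effect on the calls is given beside them. Of 5 leaf markers, RBCS1A, CA1, RCA and GLDP1 were brighter than at least 99.7% of rows and LHCB1.1 was dim, at 1.70 to 2.98. Mean levels of 4 root markers were 4.55 to 5.08 and of 4 floral markers 1.90 to 2.60 over all arrays, and among root markers PYK10 reached 9.72. Leaf marker means were higher in HL, at 10.5 to 10.8, than in NL, at 10.3 to 10.6, and their part in the results was not tested. In such bulk samples, fewer plastids or cells and less RNA in each cannot be told apart.

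The photosynthesis rows lay at the ceiling of the measurement, so that the table can show little or no rise in them. A fall would show only where a row dropped below others. The deposited values had been brought to a common distribution, and the value found at any given rank differed by at most 0.0019 over the 40 arrays, which means that a row's value is set by its rank in brightness. ATCG00140 shared the top rank on all 40 arrays with a nuclear row, AT3G32990, of exactly equal value, and read 14.27 everywhere. ATCG00580 held rank 3 on all 40 arrays, at 14.08. ATCG00140 could not have shown a rise, and neither row fell below the one under it.

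ATCG00020 moved only between ranks 4 and 6, that is between 13.69, 13.71 and 13.81. Its moves to and from rank 4 changed its order with RBCS1A (AT1G67090), for a nuclear small subunit of Rubisco. Over the 40 arrays the values of the pair had a Pearson correlation of -0.9952. The pair differed by up to 0.12, which spans ranks 4 to 6, so another row lay between them on some arrays. ATCG00020 held rank 4, above RBCS1A, on 7 of 20 NL arrays, and these were WT replicates 2 and 4, 2cysprx replicates 1, 2 and 3, cyp20-3 replicate 1 and oastlB replicate 2. It held rank 4 on 0 of 20 HL arrays, where it lay at rank 5 on 19 and rank 6 on 1. This order was looked at after the values were seen and is given without a test. The fitted HL minus NL difference of ATCG00020 was at most 0.08 in size in any genotype and was not called, with an adjusted p of 0.509 in WT. The 0 calls among photosynthesis rows therefore give little measure of any rise, or of a change too small to alter a row's rank. A fall of these rows below rank 6 was seen on 0 of the 40 arrays.

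**Figure D1:**
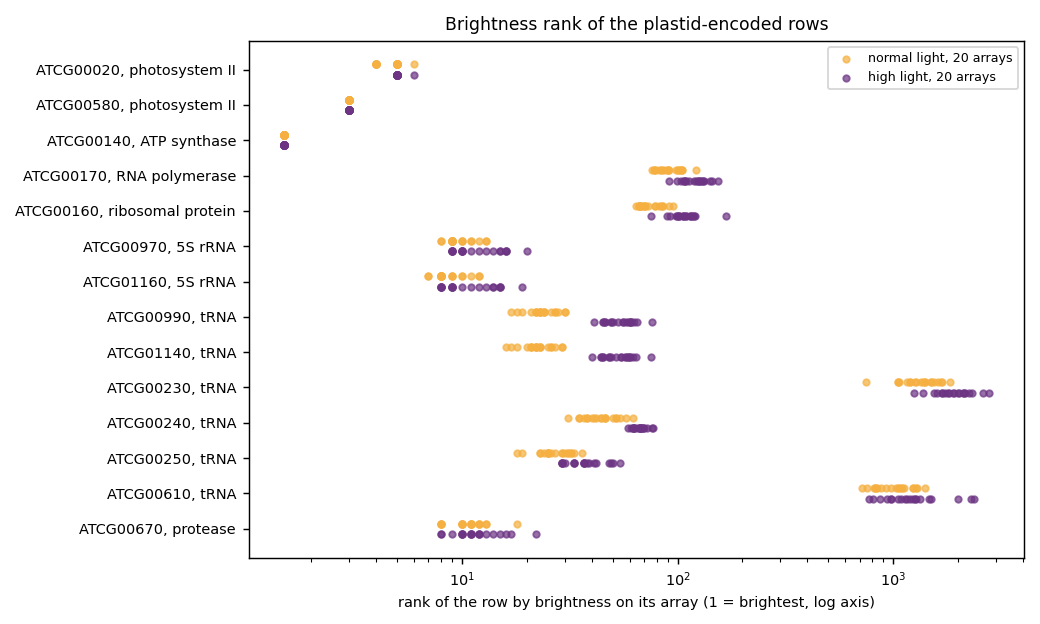
Rank of each plastid-encoded row in brightness on its array, from 1 for the brightest row, on a log axis, with 20 arrays in normal light (orange) and 20 in high light (purple). ATCG00140 and ATCG00580 do not move, ATCG00020 stays between ranks 4 and 6, and the asparagine rows go from ranks 16 to 30 in normal light to ranks 40 to 76 in high light.

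Several plastid rows were not independent measurements. ATCG00140 equalled nuclear row AT3G32990 on all 40 arrays, so the signals of these rows cannot be told apart. The asparagine copies ATCG00990 and ATCG01140 had a Pearson correlation of 0.9999 over the 40 arrays, and the 5S copies ATCG00970 and ATCG01160 one of 0.9884. ATCG00240 had a correlation of 0.9997 with nuclear row AT3G20365, and ATCG00670 one of 0.9959 with AT2G05935. ATCG00610 was within 0.0020 of mitochondrial row ATMG00930 on every array and equal to it on 22, so its plastid and mitochondrial signals cannot be told apart.

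**Figure D2:**
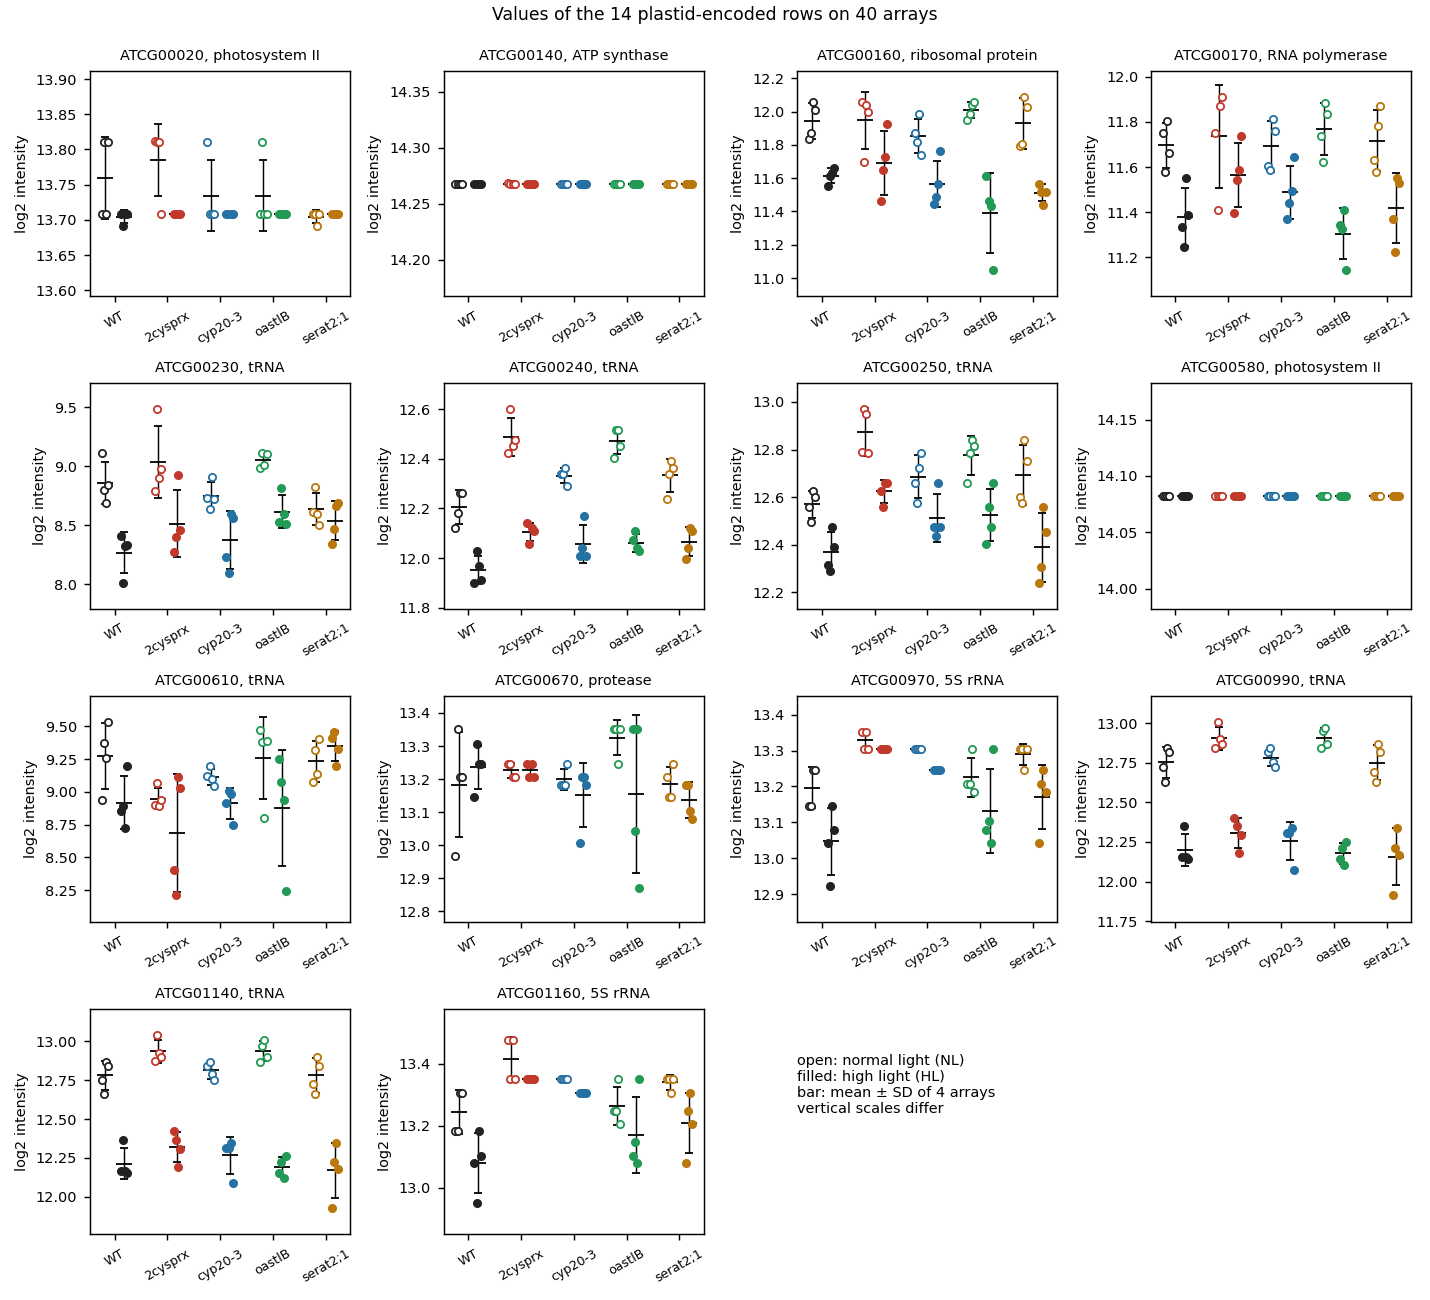
Log2 intensity of each plastid-encoded row by genotype, with open points for normal light, filled points for high light, and bars for the mean ± SD of 4 arrays. Vertical scales differ between panels. In ATCG00990, ATCG01140 and ATCG00240 the 4 high light arrays lie below the 4 normal light arrays in every genotype.

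Between 4 and 7 of the 14 plastid rows were called lower after high light, depending on the genotype, and 0 were called higher, where 10.3% of all rows were in WT. That share was 4.48% for 2cysprx, 8.83% for cyp20-3, 7.90% for oastlB and 5.54% for serat2;1. Of the 14 rows, 6 were called lower in WT, where 9.58% of all rows were called lower. The count was 5 in 2cysprx against a background of 4.08%, 4 in cyp20-3 against 8.99%, 7 in oastlB against 8.25% and 5 in serat2;1 against 5.90%. Every called row was one of the 10 expression rows, and with each pair of copies counted as 1, the counts in the same order were 5, 4, 3, 6 and 4 of 8. Their median log2 difference was -0.32 in WT and -0.26 in 2cysprx. It was -0.24 for cyp20-3, -0.42 for oastlB and -0.28 for serat2;1, while the median of all rows lay between -0.03 and 0.00. In the mean response over the 5 genotypes, all 10 expression rows were called lower, against 18.7% of all rows. Without 2cysprx HL replicate 2, this count was 9, with ATCG00610 no longer called (adjusted p = 0.0559), and that in 2cysprx was 4. Without 2cysprx HL replicate 1 the 2cysprx count was 3.

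These directions are relative to the whole array. When each array was centred on the median of its own 14 plastid rows, which shifts the median of all rows by 0.48 in the mean response, ATCG00990 and ATCG01140 stayed lower in that response, by -0.12 ± 0.03 and -0.14 ± 0.03, while the other expression rows took positive differences, from 0.07 for ATCG00230 to 0.39 for ATCG00970. In WT this scaling called 8 plastid rows higher and 0 lower, counts given without the share of all rows called under it. The higher ones include ATCG00140 and ATCG00580, whose difference of 0.47 is the shift of the all-row median alone. The 1 row called under both scalings, ATCG00240, had opposite signs. The plastid median lies among rows that fell, and the photosynthesis rows are held in place by rank. This scaling therefore sets every other row against a moving reference. On WT NL replicate 1 the median was 12.74, between the asparagine rows at 12.75 and 12.72. On WT HL replicate 1 it was 12.24, between ATCG00250 at 12.31 and ATCG01140 at 12.17. The asparagine rows thus help to set the reference. Their small differences under it, and the positive signs of rows that fell less, follow in part from this.

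The asparagine transfer RNA rows had the largest falls in the 4 mutant lines and in the mean response, and in WT the aspartate row ATCG00230 fell slightly more. In WT, ATCG00990 read 12.72, 12.63, 12.84 and 12.82 in NL and 12.16, 12.35, 12.16 and 12.14 in HL. In 2cysprx it read 12.84, 13.01, 12.90 and 12.87 in NL and 12.40, 12.35, 12.18 and 12.29 in HL. In every one of the 5 genotypes all HL arrays lay below all NL arrays, a separation that 11.4% of all rows showed in this direction in WT, with 6.17% for 2cysprx, 11.9% for cyp20-3, 8.96% for oastlB and 8.02% for serat2;1. In cyp20-3 the values were 12.82, 12.84, 12.75 and 12.72 in NL and 12.30, 12.30, 12.34 and 12.07 in HL. In oastlB they were 12.84, 12.95, 12.97 and 12.87 against 12.14, 12.21, 12.11 and 12.25, and in serat2;1 12.69, 12.63, 12.87 and 12.82 against 11.91, 12.21, 12.34 and 12.17. The lowest HL array of all was therefore one of serat2;1. The log2 difference was -0.55 ± 0.08 in WT (adjusted p = 4.3e-06), -0.60 ± 0.08 in 2cysprx (adjusted p = 4.2e-06), -0.53 ± 0.08 in cyp20-3 (adjusted p = 9.5e-06), -0.73 ± 0.08 in oastlB (adjusted p = 2.5e-08) and -0.59 ± 0.08 in serat2;1 (adjusted p = 3.3e-06). Without 2cysprx HL replicate 2 the 2cysprx difference was -0.61 ± 0.09 (adjusted p = 2.1e-05). Its copy ATCG01140 fell by 0.55 to 0.75 on the log2 scale over the genotypes, at most 1.68-fold. Relative to the plastid median, which the asparagine rows help to set, the difference of ATCG00990 shrank to between -0.17 and -0.08. It was called in oastlB (adjusted p = 0.0229), but not in WT (adjusted p = 0.255), cyp20-3 (adjusted p = 0.144), serat2;1 (adjusted p = 0.107) or 2cysprx (adjusted p = 0.0501). ATCG01140 was then called in oastlB (adjusted p = 0.0138) and 2cysprx (adjusted p = 0.0334), but not in WT (adjusted p = 0.179), cyp20-3 (adjusted p = 0.0923) or serat2;1 (adjusted p = 0.07).

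The tyrosine transfer RNA row ATCG00240 was the other one called lower in all 5 genotypes. Its WT values were 12.12, 12.18, 12.26 and 12.26 in NL and 11.90, 12.03, 11.97 and 11.91 in HL, a difference of -0.25 ± 0.06 (adjusted p = 0.00173). In 2cysprx it went from 12.42, 12.60, 12.45 and 12.48 to 12.14, 12.06, 12.12 and 12.11 (-0.38 ± 0.06, adjusted p = 3.4e-05). In neither genotype did the arrays of the different lights overlap. In cyp20-3 the values were 12.34, 12.34, 12.36 and 12.29 in NL and 12.01, 12.04, 12.17 and 12.01 in HL (-0.28 ± 0.06). In oastlB they were 12.40, 12.52, 12.52 and 12.45 and then 12.07, 12.11, 12.04 and 12.03 (-0.41 ± 0.06), and in serat2;1 12.24, 12.34, 12.39 and 12.36 and then 12.00, 12.04, 12.12 and 12.11 (-0.27 ± 0.06). These arrays did not overlap between lights either. The call held without 2cysprx HL replicate 2 (-0.36 ± 0.06, adjusted p = 3.0e-04). In fits with only the compared arrays the call was lost in 2cysprx (adjusted p = 0.0579) and serat2;1 (adjusted p = 0.118) and held in cyp20-3. For WT and oastlB this row was not followed singly in those fits. Relative to the plastid median the differences turned positive, from 0.07 in 2cysprx to 0.21 in WT and serat2;1. The signal of ATCG00240 and that of AT3G20365 cannot be told apart.

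The other transfer RNA rows fell less regularly. The aspartate row ATCG00230 lay at 8.69 to 9.11 in NL and 8.01 to 8.41 in HL in WT, and was called lower in WT (-0.59 ± 0.14, adjusted p = 0.00167), 2cysprx (-0.52 ± 0.14, adjusted p = 0.0116) and oastlB (-0.44 ± 0.14, adjusted p = 0.0234). In cyp20-3 it was not called (-0.38 ± 0.14, adjusted p = 0.0516), although its HL arrays lay below its NL arrays, as for 11.9% of all rows. In 2cysprx the arrays of the different lights overlapped. The 2cysprx call was lost without NL replicate 2 (-0.38, adjusted p = 0.0853) or HL replicate 1 (adjusted p = 0.0597) and with only the compared arrays (adjusted p = 0.165), and held without HL replicate 2 (adjusted p = 0.0417). The oastlB call was lost without NL replicate 2 or 4 or HL replicate 1 or 4, with adjusted p up to 0.072. In serat2;1 its NL values of 8.50 to 8.82 overlapped its HL values of 8.34 to 8.69, with a difference of -0.09 ± 0.14 (adjusted p = 0.745). The difference between the serat2;1 and WT responses, 0.50 ± 0.19, was not called (adjusted p = 0.18). The glutamate row ATCG00250 was called lower in 2cysprx (-0.25 ± 0.08, adjusted p = 0.0437), oastlB (-0.25 ± 0.08, adjusted p = 0.0238) and serat2;1 (-0.30 ± 0.08, adjusted p = 0.00838). In WT its difference was -0.20 ± 0.08 (adjusted p = 0.0701). Leaving out 2cysprx HL replicate 2 gave -0.23 in 2cysprx, and the call was lost there and on leaving out 5 other single arrays, and in serat2;1 it was lost without NL replicate 3 (adjusted p = 0.0513). With only the compared arrays ATCG00250 was called in neither 2cysprx (adjusted p = 0.217) nor serat2;1 (adjusted p = 0.154). Its oastlB call was not followed singly in that fit or in fits leaving out single arrays. The tryptophan row ATCG00610, whose arrays spread widely within groups, was called in no genotype and ranged from -0.38 to 0.11, and its 2cysprx difference of -0.26 was -0.10 without HL replicate 2.

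The protein-coding expression rows fell as well. ATCG00160, for the ribosomal protein, read 11.84, 11.87, 12.06 and 12.01 in WT in NL and 11.55, 11.61, 11.63 and 11.66 in HL (-0.33 ± 0.10, adjusted p = 0.021). In oastlB it read 11.95, 11.98, 12.04 and 12.06 in NL and 11.61, 11.46, 11.43 and 11.05 in HL, the largest fall of this row (-0.62 ± 0.10, adjusted p = 3.1e-05). The arrays of the different lights did not overlap in these genotypes. It was also called lower in serat2;1, from 11.79 to 12.09 in NL to 11.44 to 11.56 in HL (-0.42 ± 0.10, adjusted p = 0.0056), and in cyp20-3 (-0.29 ± 0.10, adjusted p = 0.0497), where 6 of 8 single-array omissions lost the call. In 2cysprx the difference was -0.26 ± 0.10 (adjusted p = 0.134), and -0.24 without HL replicate 2. ATCG00170, for the RNA polymerase subunit, was called lower in WT, from 11.58 to 11.80 in NL to 11.24 to 11.55 in HL (-0.32 ± 0.10, adjusted p = 0.0252), and in oastlB (-0.46 ± 0.10, adjusted p = 0.00115). In the other genotypes it lay between -0.30 and -0.17 and was not called. In WT the calls of ATCG00160 and ATCG00170 were each lost on leaving out WT NL replicate 3 or WT HL replicate 1, among others, with adjusted p between 0.0214 and 0.0694 and between 0.0145 and 0.0913.

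In the mean response, the 5S ribosomal RNA rows and the protease row changed least among rows outside photosynthesis. ATCG00970 differed by -0.15 to -0.02 and ATCG01160 by -0.17 to -0.05 over the genotypes. Neither was called in a single genotype, and both were called lower in the mean response (-0.09 ± 0.03, adjusted p = 0.00956, and -0.10 ± 0.03, adjusted p = 0.006). ATCG00670, for the Clp protease subunit, differed by -0.17 to 0.05 and was not called in the mean response (-0.04 ± 0.04, adjusted p = 0.406). These rows lay among the brightest 22 rows, where few ranks are left above them.

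**Figure D3:**
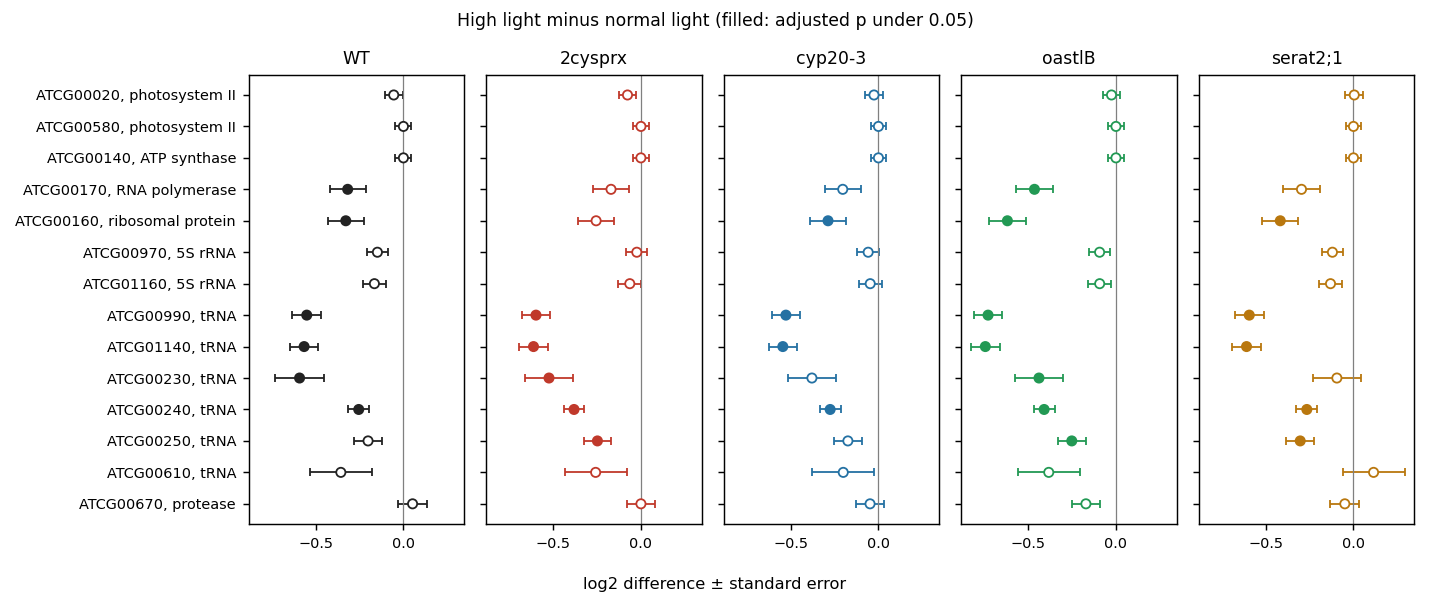
Log2 difference between high and normal light ± standard error for each plastid-encoded row in each genotype, with filled points for an adjusted p under 0.05. Called rows all lie to the left of 0, and the asparagine rows lie between -0.75 and -0.53. Differences relative to each array's plastid median are not drawn. On that scale the asparagine rows, which help to set the median, stay below 0, and most other expression rows lie above it.

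Whether the mutants responded to light differently from WT was tested as a difference of responses, and limma called 0 of 14 rows in each of the 4 lines. Over all rows, 6.09% were called for 2cysprx, 0.855% for cyp20-3, 2.80% for oastlB and 2.29% for serat2;1. At an unadjusted p under 0.05 there were 0, 0, 0 and 1 plastid rows, the last being ATCG00230 in serat2;1. Among all 27826 rows there were 4924, 2644, 4462 and 4467. The asparagine row ATCG00990 differed from the WT response by -0.18 ± 0.12 in oastlB, -0.05 ± 0.12 in 2cysprx, -0.04 ± 0.12 in serat2;1 and 0.02 ± 0.12 in cyp20-3. For ATCG00160 in oastlB the difference was -0.29 ± 0.15 (adjusted p = 0.326). These 4 tests share the WT arrays, and 0 rows were called for 2cysprx without HL replicate 2 as well.

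In NL, the tyrosine row ATCG00240 was higher in 2cysprx and oastlB than in WT, and the glutamate row ATCG00250 in 2cysprx. These were 2 of 14 rows in 2cysprx, against 5.59% of all rows called higher. ATCG00240, with values given above, was higher by 0.28 ± 0.06 (adjusted p = 0.0013), and all 4 of its 2cysprx arrays lay above all 4 WT arrays. In this direction 1841 of all 27826 rows were separated in the same way. ATCG00250 read 12.79, 12.97, 12.95 and 12.79 in 2cysprx and 12.56, 12.50, 12.63 and 12.60 in WT, a difference of 0.30 ± 0.08 (adjusted p = 0.00951), again with no overlap. In oastlB 1 of 14 rows was called higher, against 2.15% of all rows, and it was ATCG00240 (0.27 ± 0.06, adjusted p = 0.00782). ATCG00250 was at 12.66, 12.79, 12.84 and 12.82 in oastlB (0.21 ± 0.08, adjusted p = 0.165). For cyp20-3, with 0.0467% of all rows called, and serat2;1, with 2.42%, limma called 0 plastid rows. In each, 1 plastid row had an unadjusted p under 0.05, against 2549 and 4034 of all 27826 rows. ATCG00240 differed from WT by 0.13 ± 0.06 in each of these lines. The lines share the 4 WT NL arrays, on which ATCG00240 and ATCG00250 were at their lowest group means in NL. A fit with only the arrays of the 2 compared groups called neither row in 2cysprx (adjusted p = 0.176 and 0.153) or oastlB (adjusted p = 0.27), with the same differences.

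In HL, the 5S ribosomal RNA rows were higher in 2cysprx than in WT. ATCG00970 read 13.30 on all 4 2cysprx arrays and 13.04, 12.92, 13.15 and 13.08 in WT, a difference of 0.26 ± 0.06 (adjusted p = 0.0165), and its copy ATCG01160 read 13.35 on all 4 against 13.08, 12.95, 13.18 and 13.10 (0.27 ± 0.06, adjusted p = 0.0165). These were the 2 plastid rows called, against 1.27% of all rows called higher. The same rows were called with 2cysprx HL replicate 2 left out. Without WT HL replicate 2, the lowest WT array, neither was called (0.22 and 0.23, adjusted p = 0.0864 and 0.0846), nor in a fit of only the compared arrays (adjusted p = 0.193 and 0.177). In cyp20-3 ATCG00970 read 13.25 on all 4 arrays, with differences of 0.20 ± 0.06 and 0.23 ± 0.06 for the copies (adjusted p = 0.0926 and 0.0574). In cyp20-3, oastlB and serat2;1, limma called 0 plastid rows, against 2.24%, 0.855% and 0.956% of all rows. An unadjusted p under 0.05 was found for 2, 2 and 1 plastid rows, against 2705, 3827 and 3694 of all 27826 rows. These comparisons share the WT HL arrays.

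**Figure D4:**
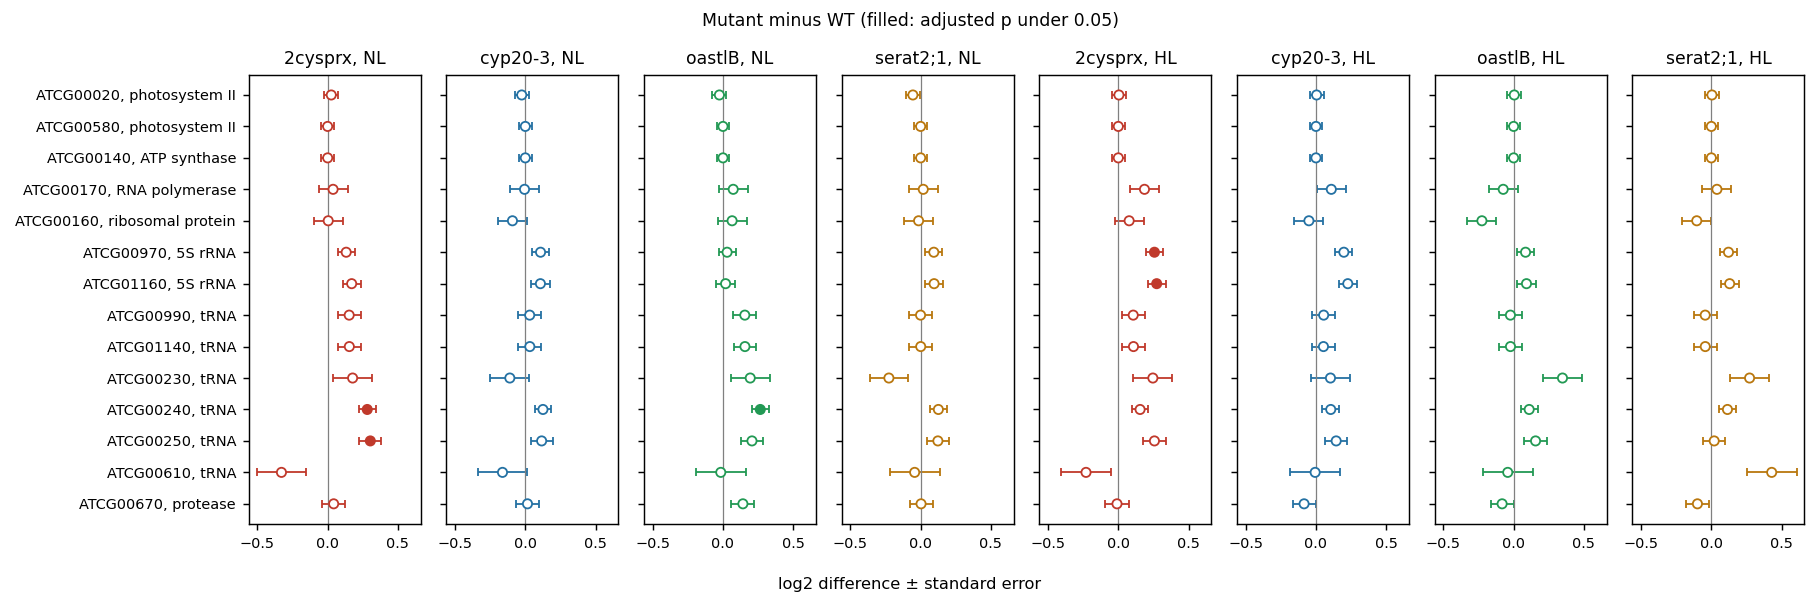
Log2 difference between each mutant line and WT ± standard error for each plastid-encoded row, in normal light (NL) and high light (HL), with filled points for an adjusted p under 0.05. The filled points are ATCG00240 and ATCG00250 in 2cysprx and ATCG00240 in oastlB in normal light, and the 5S rows in 2cysprx in high light. Within a light, all panels use the same 4 WT arrays.

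Nuclear genes of plastid transcription were set beside the plastid rows with a list of 20 genes, namely 6 sigma factors, the phage-type polymerases RPOTP and RPOTMP and the 12 polymerase-associated proteins (PAPs). In the mean light response 11 of 20 were called lower and 2 higher, against 18.7% and 16.6% of all rows, with a list median of -0.14. PAP1 (AT3G04260, PTAC3 in the reference table) fell most (-0.69 ± 0.04, adjusted p = 2.6e-16), followed by PAP2 (AT1G74850, PTAC2, -0.50 ± 0.04, adjusted p = 1.0e-11). Both are proteins of the transcriptionally active plastid chromosome, and each was called lower in all 5 genotypes. SIG2 (AT1G08540), a sigma factor known for transcription of plastid transfer RNA genes, including that of glutamate, was also called lower in all 5, by 0.28 to 0.55 on the log2 scale. SIG5 (AT5G24120), a sigma factor induced by stress and blue light, was called higher in all 5 (0.93 ± 0.06 in the mean response, adjusted p = 7.8e-15), and SIG4 (AT5G13730) was the other gene called higher (0.14 ± 0.04, adjusted p = 0.00796).

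In NL, genes of this list were called higher in every line. In 2cysprx 11 of 20 genes were called higher, against 5.59% of all rows, and 0 lower, with a list median of 0.31 against -0.01 for all rows. In oastlB 9 were called higher, against 2.15% of all rows, and 0 lower, with a median of 0.31 against 0.00. In serat2;1 4 were called higher, against 1.60% of all rows, and in cyp20-3 2, against 0.0216%. The largest differences in 2cysprx were those of PAP6 (AT3G54090, FLN1), a fructokinase-like protein, at 0.79, and PAP5 (AT2G34640, PTAC12) at 0.71. SIG2 differed from WT by 0.05 in 2cysprx and was not called.

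**Figure D5:**
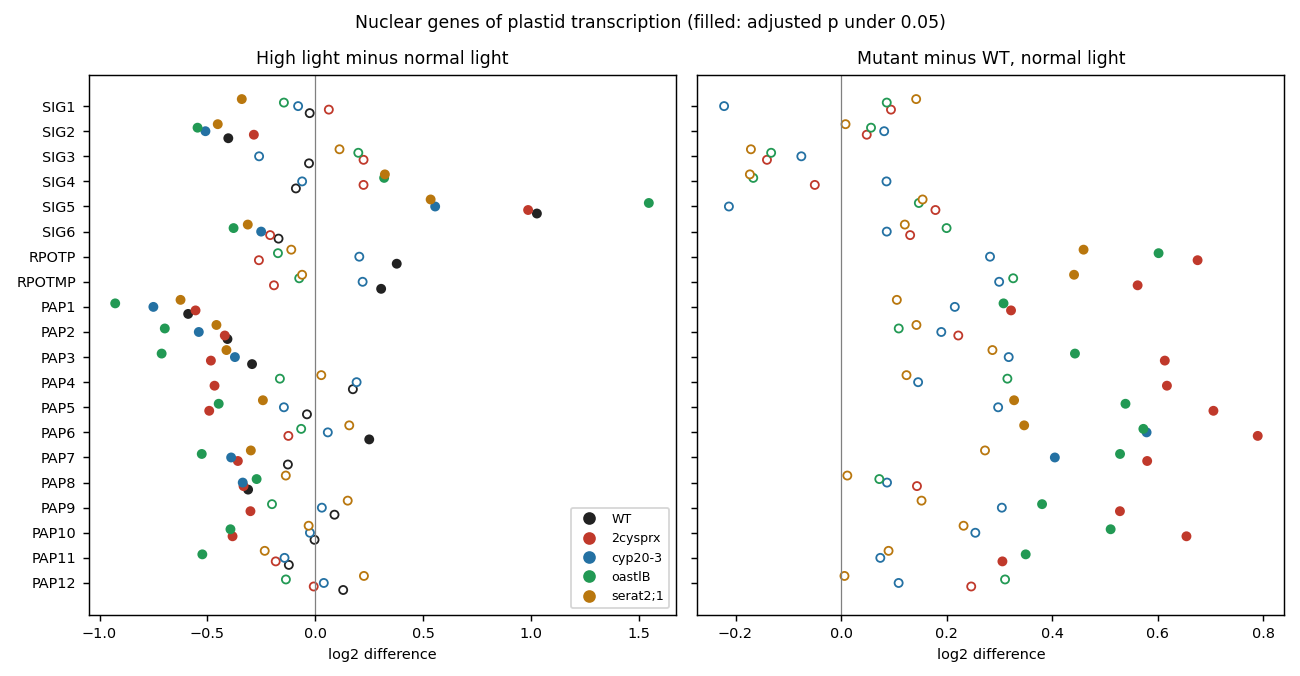
Log2 difference for 20 nuclear genes of plastid transcription between high and normal light in each genotype (left) and between each mutant line and WT in normal light (right), with filled points for an adjusted p under 0.05. On the left, SIG5 is filled right of 0 and SIG2, PAP1, PAP2 and PAP3 are filled left of it in all 5 genotypes. In the right panel, 11 genes are filled for 2cysprx and 9 for oastlB.

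Nuclear genes for subunits of the photosynthetic complexes, 30 in all, moved in either direction in the mean light response, with 10 called higher and 4 lower, against 16.6% and 18.7% of all rows, and a median of 0.02. The Rubisco small subunit genes RBCS2B (AT5G38420, 1.12 ± 0.04) and RBCS1B (AT5G38430, 0.80 ± 0.06) rose most, and the photosystem I genes PSAD2 (AT1G03130, -0.28 ± 0.06) and PSAD1 (AT4G02770, -0.16 ± 0.05) fell most. RBCS1A, at the ceiling beside ATCG00020, showed 0.04 ± 0.02. Among the 92 rows of the mitochondrial genome, 16 were called higher and 39 lower in the mean light response, against the same 16.6% and 18.7% of all rows, with a median of -0.09.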

How the data were processed

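Per the submitters' processing notes, the authors made the deposited log2 values with RMA, which background-corrects, quantile-normalizes and summarizes probes. The sources used here do not give its version, the array type, the probe grouping or the priming of the labelled cRNA. The deposited table holds 27826 rows on 40 arrays, without detection calls. No filter was applied, and the number of arrays limits precision. Limma 3.58.1 in R 4.3.3 fitted 1 mean per group, with 30 residual and 3.90 prior degrees of freedom, with two-sided tests and Benjamini-Hochberg adjustment over all rows within each of 18 contrasts. The script was tested on simulated data. Rows with a constant value have a standard error set by the prior and are described by rank only. The members and lists were chosen with earlier results of these data known. Named in each contrast were the called rows with up to 5 largest rises and falls, ATCG00020 and ATCG00670 always, and up to 2 called rises and falls per nuclear list, other rows being given by values. Symbols of nuclear loci came from a RefSeq table of TAIR10.1, which held 27241 of the loci. Replicate numbers were not taken to pair arrays, since the labels state no pairing. Residuals of same-numbered arrays correlated at or under 0.1 in 177 of 180 pairs (range -0.13 to 0.12). Their median was 0.0157, against -0.0044 for arrays with different numbers. Such values do not show that same-numbered arrays were unrelated. Alternatives were a second quantile normalization, an intensity trend, a replicate block, only the compared arrays, the brighter rows, centring on the plastid median, and leaving out each array. No sequences are shown.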

Additional observations from a re-analysis of the deposited data

Results flagged for a closer look

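In 16 of 120 sets of 4 arrays, each a row in a group, 1 array stood apart from the other 3, and chance marks about 1 in 20 sets. Rows at the top ranks take few distinct values, and copies repeat each other. For ATCG00020 the arrays apart were WT HL replicate 2 (13.69), 2cysprx NL replicate 4 (13.71), cyp20-3 NL replicate 1 (13.81), oastlB NL replicate 2 (13.81) and serat2;1 NL replicate 3 (13.69). For ATCG00670 they were cyp20-3 NL replicate 4 (13.25), cyp20-3 HL replicate 1 (13.01) and oastlB NL replicate 3 (13.25). On serat2;1 NL replicate 3 the 5S rows ATCG00970 (13.25) and ATCG01160 (13.30) were low.

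The asparagine rows ATCG00990 and ATCG01140 were high on WT HL replicate 2 (12.35 and 12.36) and low on cyp20-3 HL replicate 4 (12.07 and 12.09). ATCG00160 was low on 2cysprx NL replicate 2 (11.70), and ATCG00610 was low on oastlB NL replicate 3 (8.80).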

How the results depend on the processing

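Centring on the plastid median changed most. For light it called 8 rows higher and 0 lower in WT, 8 and 1 in 2cysprx (9 in all), 7 and 0 in cyp20-3, 8 and 2 in oastlB, 10 and 0 in serat2;1, and 10 and 2 in the mean response. These counts cannot be set against a background, since the share of all rows called under this scaling is not given here. The scaling raised the median light difference of all rows by 0.42 in cyp20-3 to 0.56 in oastlB. The rows called higher include ATCG00140 and ATCG00580, which carry that shift alone. Centring called 0 for 2cysprx and oastlB in NL and 2cysprx in HL. The 34 single-row results were the called rows with up to 5 largest rises and falls in each contrast. Among them, ATCG00160 turned positive in WT (0.14), cyp20-3 (0.13), serat2;1 (0.0603) and the mean response (0.0941), and ATCG00170 in WT (0.15) and oastlB (0.10). ATCG00230 did so in oastlB (0.13) and the mean (0.0698), and ATCG00240 in 2cysprx (0.071), cyp20-3 (0.14), serat2;1 (0.21) and the mean (0.16). ATCG00250 did so in 2cysprx (0.20) and serat2;1 (0.17). Called falls outside these results turned positive too, including ATCG00240 in WT (0.21) and oastlB (0.15) and ATCG00250 in oastlB (0.31). With only the compared arrays, which leaves fewer samples to estimate the spread, light called 2 rows in 2cysprx and 3 in serat2;1, and 2cysprx and oastlB in NL and 2cysprx in HL had 0. The intensity trend and the brighter rows each called 2 rows for cyp20-3 in HL, and the cause was not tested. Leaving out single arrays gave 4 to 7 called rows for light in WT, 3 to 5 in 2cysprx and cyp20-3, 5 to 7 in oastlB, 4 to 6 in serat2;1 and 9 to 10 in the mean. It gave 0 to 2 for 2cysprx in HL, 0 to 1 for cyp20-3 in HL (1 without WT HL replicate 3), 2 for 2cysprx in NL, 1 for oastlB in NL, and 0 in the other contrasts. Of 34 single-row results, 25 kept their call in every such fit. A replicate block gave 7 rows for light in WT, 6 in serat2;1 and 3 for 2cysprx in HL, with the other counts as before, and 20 of 40 arrays matched best an array of their own number in another group, where 10 would if numbers carried no information, a hint from the data and not the design.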
